A study of Mus musculus with 4 samples.

Results

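A set of 9 genes that remove RNA from DNA or hold back retroelements were followed in MEF cells, fibroblasts grown from mouse embryos, that were wild-type (wt) or null for Top2β, a DNA topoisomerase that passes a DNA double strand through another. The genes were set by name: Rnaseh1, Rnaseh2a, Rnaseh2b, Rnaseh2c, Samhd1, Trex1, Apobec3, Mov10 and Bst2. They are 9 of the 54842 genes in the deposited counts table, and all 9 were among the 25085 genes with enough counts to be tested. Each genotype had 2 libraries of total RNA, all from untreated cells in the same DMEM medium with serum. The labels give these genotypes as wild-type and top2beta null, with no other allele or agent. The study's methods cite separate origins for the wt MEF cells and the Top2β-null MEF cells, the latter a gift from other laboratories, so the loss of Top2β and the origin of the cells cannot be told apart. The labels do not say whether the 2 libraries of a genotype came from separate cultures, and p-values then measure only the spread between these libraries, which may be technical.

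RNA:DNA hybrids arise where a new transcript pairs again with its template, forming an R-loop, and where retroelements copy their RNA into DNA. RNase H1 cuts the RNA strand of longer hybrids, and RNase H2, made of a catalytic A subunit and the B and C subunits, cuts hybrids and also single ribonucleotides left in DNA. Samhd1 and Trex1 keep the supply of DNA precursors and of stray DNA low. Apobec3, Mov10 and Bst2 act on retroviruses and retroelements at later steps, and loss of several of these genes in man or mouse leads to an interferon response against the cell's own nucleic acid.

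Of the 9 genes, 3 were higher in Top2β-null MEF cells by the cut-offs of the study's methods, namely Apobec3, Bst2 and Mov10, and 1, Rnaseh2a, was lower. To pass, a gene needed a log2 fold change past 1 in either direction, a mean of over 100 normalized counts and an adjusted p under 0.05. A normalized count is a count scaled by edgeR's TMM factors to a common library size. By the same cut-offs 5.27% of all 26566 genes and repeat families tested were higher and 4.97% were lower. With the adjusted p as the only criterion, 3 members were higher and 4 lower (Rnaseh1, Rnaseh2a, Rnaseh2b and Samhd1), against 32.5% of all features in either direction. Among the 17952 features with a mean over 100, to which all 9 members belong, 36.7% were higher and 38.3% lower, so that a small change with a low p was common in these libraries. The median log2 fold change was -0.12 over the 9 genes and 0.0027 over all features, and the median of its absolute value was 0.38 and 0.39.

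**Figure D1:**
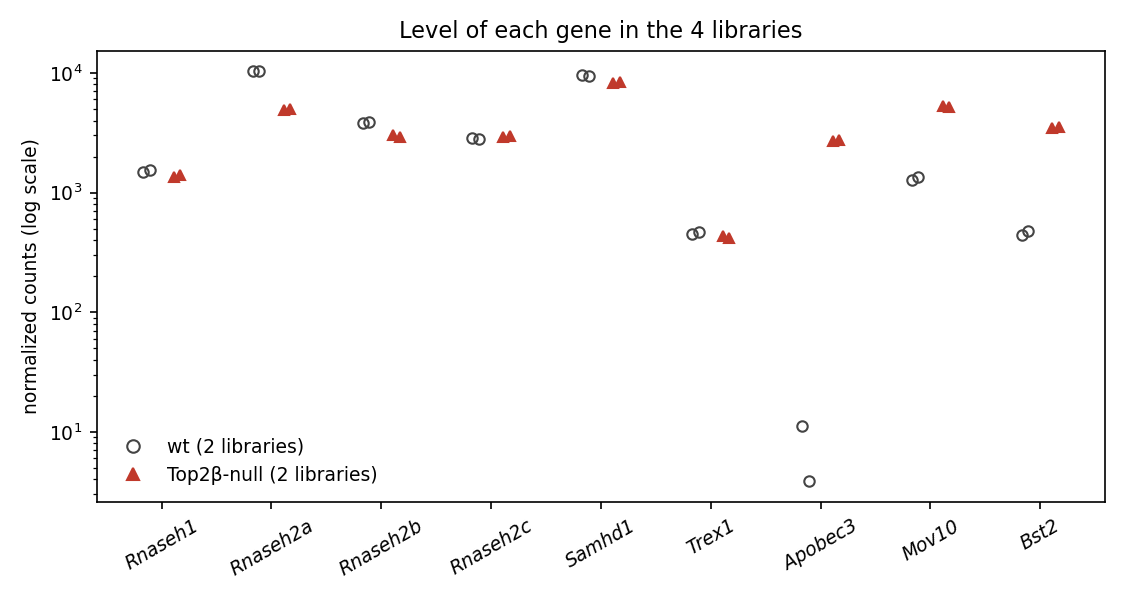
Normalized counts on a log axis for each of the 9 genes, with 1 symbol per library (open circles, 2 wt libraries; triangles, 2 Top2β-null libraries). Apobec3, Mov10 and Bst2 stand far higher in both Top2β-null libraries, and Rnaseh2a stands lower. For each of the other 5 genes the symbols of the genotypes lie near each other on this axis.

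Libraries held between 133116830 and 149647278 counts, and the 9 genes together took 29935 to 32885 counts of each. Top2b, the deleted gene, kept 20.9% of its wt level after the deletion, a log2 fold change of -2.26 (standard error 0.0271). Of 12 fibroblast markers, 11 were tested and all 4 libraries were rich in them, with sums of 1336605 and 1360933 normalized counts in wt and 925036 and 930082 in Top2β-null MEF cells, but Postn fell from 2573 and 2563 to 41.4 and 46.6 and Dcn rose from 226 and 223 to 7053 and 7239. Lum, a fibroblast proteoglycan, was too low to test in both genotypes. The 14 leukocyte markers summed to 1636 and 1611 normalized counts in wt and to 1343 and 1356 in Top2β-null MEF cells, with Tyrobp and Adgre1 at 0 throughout and Laptm5 at 0 in wt. Ptprc, which marks all leukocytes, had at most 6.76 normalized counts, and most of the sum came from Itgb2, which fell from 736 and 713 to 220 and 208, and Csf1r, which rose from 740 and 767 to 962 and 978. The 8 epithelial markers summed to 86.8 and 92.7 in wt and 24.9 and 30.7 in Top2β-null cells, and the 7 endothelial markers to 174 and 176 against 263 and 262, with Emcn at 0 in wt. Kdr alone accounted for the higher endothelial sum, with 71.7 and 68.6 in wt and 203 and 205 in Top2β-null cells, while Tek had 43.4 and 34.8 against 9.32 and 3.96. Their part in the results was not tested, and in bulk RNA fewer cells of a type and less RNA per cell cannot be told apart.

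Rnaseh2a encodes the catalytic subunit of RNase H2 and lies on the reverse strand of chromosome 8 from 84956610 to 84969767 (GRCm38, the assembly also named mm10). It had 10284 and 10323 normalized counts in wt cells and 4888 and 5015 after loss of Top2β. The groups lay far apart, and the Top2β-null level was 48.1% of wt. The log2 fold change was -1.06 (standard error 0.0267, edgeR's quasi-likelihood test, adjusted p = 5.6e-15), with a 95% interval from -1.11 to -1.0001. The gene thus stood at the edge of the cut-off of 1. It fell short of it at -0.99 when libraries were scaled to their total count, at -0.69 when they were scaled to Hprt, and at -0.9997 without Top2β-null replicate 1.

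The B and C subunits, which do not cut but are needed for a stable enzyme, moved less. Rnaseh2b (chromosome 14, forward strand, from 62292589 to 62372992) had 3802 and 3921 normalized counts in wt and 3015 and 2929 in Top2β-null MEF cells. Both Top2β-null libraries lay below both wt libraries, at 77.0% of the wt mean. This gave a log2 fold change of -0.38 (standard error 0.0375, edgeR adjusted p = 2.0e-07), under the cut-off for size, and the call was lost with scaling to Hprt (-0.0092, edgeR adjusted p = 0.85). Rnaseh2b lies on the chromosome that carries Top2b, 45.9 Mb from it. Rnaseh2c (chromosome 19, forward strand, from 5601873 to 5607019) had 2832 and 2817 normalized counts in wt and 2898 and 2995 in Top2β-null libraries. Its difference did not pass the test (log2 fold change 0.061, 95% interval from -0.023 to 0.15, edgeR adjusted p = 0.19), but scaling to the total count gave 0.13 with an adjusted p of 0.0090 (edgeR), scaling to Hprt gave 0.43 with 5.3e-09, and leaving out Top2β-null replicate 1 gave 0.12 with 0.037.

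Rnaseh1 works alone and also serves mitochondria. It lies on chromosome 12 from 28649602 to 28659589, forward strand, and had 1480 and 1544 normalized counts in wt and 1348 and 1397 in Top2β-null MEF cells. The groups did not overlap, but the Top2β-null mean was still 90.8% of wt. Its log2 fold change of -0.14 (standard error 0.0510, edgeR adjusted p = 0.026) lost the call with DESeq2 (-0.13, adjusted p = 0.14), without wt replicate 2 (-0.12, edgeR adjusted p = 0.10) and without Top2β-null replicate 1 (-0.074, edgeR adjusted p = 0.29), and it turned to 0.23 with scaling to Hprt.

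Because the subunits of RNase H2 form 1 complex, their counts were also compared within each library, which needs no scaling between libraries. The log2 ratio of Rnaseh2a to Rnaseh2c was 1.86 and 1.87 in wt and 0.75 and 0.74 in Top2β-null MEF cells. A wt library thus held 3.65 reads of Rnaseh2a for each read of Rnaseh2c, and a Top2β-null library held 1.68. The difference of -1.12 stood against a pooled replicate SD of 0.00861. For Rnaseh2a to Rnaseh2b the log2 ratio went from 1.42 ± 0.0275 to 0.74 ± 0.0556 (SD, n = 2 libraries), and for Rnaseh2b to Rnaseh2c from 0.45 ± 0.0369 to 0.012 ± 0.0632 (SD, n = 2). Rnaseh1 gained on Rnaseh2a, from -2.77 ± 0.0393 to -1.85 ± 0.0105 (SD, n = 2). Each of the 4 differences exceeded its replicate SD, with no overlap between the genotypes, but 2 libraries against 2 allow no p below 0.33 in a two-sided exact permutation test, and all 4 gave that p, raw and adjusted over the 4 ratios. The counts of the catalytic subunit were thus lower relative to those of its partners by a measure that scaling between libraries does not touch.

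**Figure D2:**
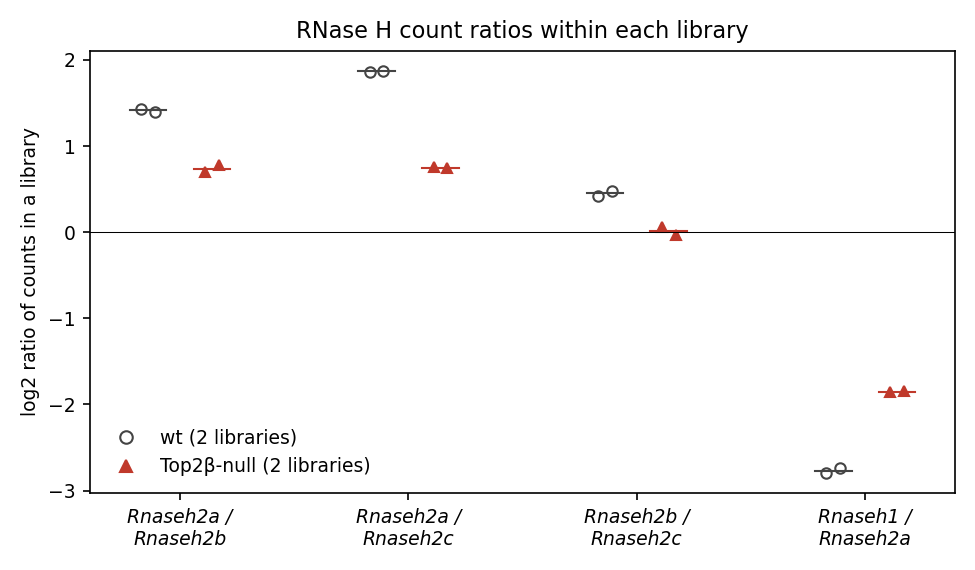
Log2 ratio of raw counts of 2 RNase H genes within a library (open circles, wt; triangles, Top2β-null; bars, mean of 2 libraries; 0 marks equal counts). Rnaseh2a lost ground to Rnaseh2b and Rnaseh2c in both Top2β-null libraries, and Rnaseh1 gained on Rnaseh2a from -2.77 to -1.85.

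Samhd1 and Trex1 limit the DNA available to retroelements and to sensors. Samhd1 breaks down dNTPs, the building blocks for reverse transcription, and spans 157097533 to 157135265 on the reverse strand of chromosome 2. It was abundant, with 9633 and 9466 normalized counts in wt and 8173 and 8319 in Top2β-null MEF cells. The Top2β-null libraries lay below wt at 86.3% of the mean, with a log2 fold change of -0.21 (standard error 0.0258, edgeR adjusted p = 2.2e-06) that turned to 0.16 with scaling to Hprt. Samhd1 is an interferon-stimulated gene in many cell types.

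Trex1 is the main DNA exonuclease of the cytosol (chromosome 9, reverse strand, from 109057933 to 109059734). It had 450 and 471 normalized counts in wt and 433 and 414 in Top2β-null MEF cells. The libraries did not overlap, yet the difference of -0.12 did not pass the test (95% interval from -0.29 to 0.044, edgeR adjusted p = 0.19) and turned to 0.25 with scaling to Hprt. All 1147 exonic bases of Trex1 also belong to exons of Atrip on the same strand in the annotation, so reads of the pair could not be kept apart with certainty and the Trex1 count is uncertain. Atrip had 2823 and 2739 normalized counts in wt and 2969 and 2859 in Top2β-null cells (log2 fold change 0.067, edgeR adjusted p = 0.16).

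The restriction factors showed the large changes. Apobec3 is the single mouse member of the APOBEC3 cytidine deaminases, which are packed into virus particles and damage or block the DNA copy of retroviruses and LTR elements. The gene lies on the forward strand of chromosome 15 from 79891659 to 79915906. Only 11 and 4 reads of it were counted in the wt libraries, or 11.1 and 3.86 normalized counts. In the Top2β-null libraries it had 2680 and 2762. The wt cells thus held almost no Apobec3 RNA, and the means lay 364-fold apart. The log2 fold change was 8.50 (standard error 0.13, edgeR adjusted p = 1.1e-17), rank 80 from the highest of the 17952 features with a mean over 100. As the wt level rests on 15 reads, the size is less sure than the direction, and it ranged from 7.91 without wt replicate 2 to 9.40 without wt replicate 1.

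Bst2, also called tetherin, is a membrane protein that ties budding virus particles to the cell surface. It lies on the reverse strand of chromosome 8 from 71534255 to 71537456. It rose from 441 and 473 normalized counts in wt to 3430 and 3509 in Top2β-null MEF cells. Bst2 was therefore already present in wt cells, unlike Apobec3, and stood 7.59-fold higher in the absence of Top2β. Its log2 fold change was 2.92 (standard error 0.0538, edgeR adjusted p = 1.1e-16).

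Mov10 is an RNA helicase that binds L1 and retroviral RNA and lowers retrotransposition. It spans 104794836 to 104818563 on the reverse strand of chromosome 3 and had 1281 and 1358 normalized counts in wt and 5322 and 5230 in Top2β-null libraries. This was a 3.999-fold difference, with a log2 fold change of 2.00 (standard error 0.0416, edgeR adjusted p = 5.1e-16). Bst2, Mov10 and Apobec3 kept their direction and passed the cut-offs in every setting in which they were tested. With at least 100 counts asked of every library Apobec3 was not tested.

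**Figure D3:**
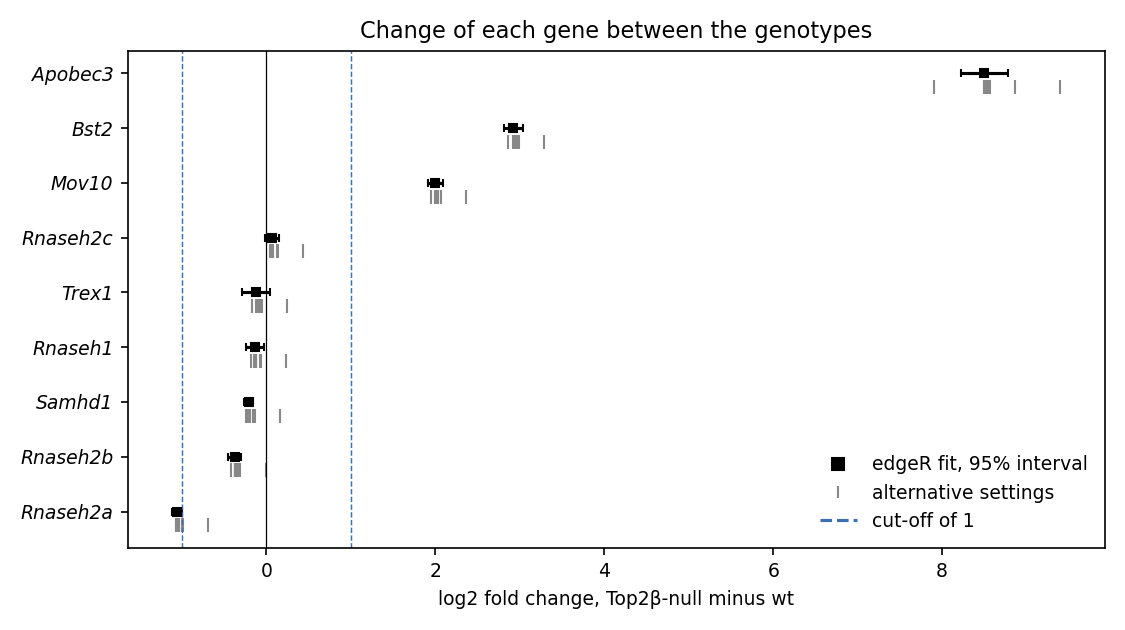
Log2 fold change of each gene (squares, edgeR fit with its 95% interval; grey ticks, values under the alternative settings; dashed lines, cut-off of 1 in either direction). Apobec3, Bst2 and Mov10 lie right of the cut-off under every setting in which they were tested, and the ticks of Rnaseh2a fall on both sides of it.

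The sequence around the start of the members was searched for the core letters of the interferon-stimulated response element (ISRE). This is a sequence found before many interferon-stimulated genes. The members that rose past the cut-offs were Apobec3, Bst2 and Mov10. The search used GAAANNGAAA on both strands, the reverse being TTTCNNTTTC, in the RefSeq windows of 250 bases before to 50 bases after each start (GRCm38.p6). Windows were at hand for 7 of the 9 genes, 10 windows in all. Rnaseh1 and Rnaseh2b had none. The letters occurred in 2 genes, Apobec3 and Bst2, and in 3.99% of all 27025 genes with a window (3.44% of 32851 windows). Windows of Mov10, which also rose, and of Rnaseh2a, Rnaseh2c, Samhd1 and Trex1 did not hold them, which says nothing about binding elsewhere. The 250 bases before the first listed start of Apobec3 (chr15:79892158-79892407, forward strand) and before that of Bst2 (chr8:71537473-71537722, reverse strand) are given 5′ to 3′ with matches in capitals.
Apobec3: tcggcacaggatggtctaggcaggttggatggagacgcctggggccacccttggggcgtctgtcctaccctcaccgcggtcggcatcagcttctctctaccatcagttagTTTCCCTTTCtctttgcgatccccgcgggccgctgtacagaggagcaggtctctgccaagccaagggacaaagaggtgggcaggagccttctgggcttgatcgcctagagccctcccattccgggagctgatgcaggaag
Bst2: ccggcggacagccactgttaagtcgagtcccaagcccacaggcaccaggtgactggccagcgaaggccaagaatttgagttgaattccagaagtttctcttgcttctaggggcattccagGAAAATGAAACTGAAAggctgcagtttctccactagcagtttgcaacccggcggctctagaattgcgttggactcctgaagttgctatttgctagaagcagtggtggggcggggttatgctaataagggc

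In Apobec3 the match lies on the reverse strand, at positions -140 to -131 from the start, and the second window of this gene held none. In Bst2 there are 2 overlapping matches on the strand of the gene, GAAAATGAAA from -130 to -121 and GAAACTGAAA from -124 to -115. A second, shorter pattern of interferon-regulated promoters, TTCNNNGAA, which reads the same on both strands, occurs once each in Bst2 (from -136 to -128), Samhd1 (from -235 to -227) and Rnaseh2a (17 to 25 bases after the start), and in 9.55% of all genes with a window, so it was not limited to genes that rose. A match is a description of the letters and not a site in use.

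Levels can be set side by side between genes only per length, here as normalized counts per kilobase of annotated exon. In wt MEF cells the order was Rnaseh2a (2936 ± 7.80, SD, n = 2), Rnaseh2c (1647 ± 6.42), Samhd1 (1044 ± 12.9), Rnaseh2b (619 ± 13.4), Rnaseh1 (585 ± 17.5), Bst2 (506 ± 25.2), Trex1 (402 ± 13.1), Mov10 (235 ± 9.74) and Apobec3 (0.79 ± 0.54). The RNase H2 subunits and Samhd1 thus took the first places, with Mov10 and Apobec3 last. In Top2β-null cells Bst2 led with 3842 ± 61.8 (SD, n = 2), ahead of Rnaseh2c (1718 ± 40.1), Rnaseh2a (1411 ± 25.4), Mov10 (941 ± 11.6) and Samhd1 (901 ± 11.3). Rnaseh1 (531 ± 13.4), Rnaseh2b (476 ± 9.76), Trex1 (369 ± 11.7) and Apobec3 (288 ± 6.13) followed. No neighbours in either order had libraries that overlapped, but the closest pairs were near each other: Rnaseh2b (609 and 628) and Rnaseh1 (572 and 597) in wt, and Mov10 (949 and 933) and Samhd1 (893 and 909) in Top2β-null cells. The lengths take in every annotated exon, which lowers the value of genes with long minor exons.

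Several members share sequence with a neighbour. The study's methods do not state whether counting used strand, and without strand reads over such bases belong to neither gene for sure. Rnaseh2c shares 24.8% of its exonic bases with Kat5 on the opposite strand, which had 3869 and 3896 normalized counts in wt and 3827 and 3971 in Top2β-null cells. Rnaseh2a shares 5.04% with Prdx2 on the opposite strand, an abundant gene at 23796 and 23415 in wt and 16365 and 16639 in Top2β-null cells (log2 fold change -0.52), and 9.66% with Gm49661. Beside Apobec3, the opposite-strand gene Cbx7 shares 1.06% of the exonic bases and rose from 77.7 and 66.6 to 634 and 597 normalized counts (log2 fold change 3.09, edgeR adjusted p = 5.5e-13). D730005E14Rik, on the strand of Apobec3 and over its 5′ end (7.15% of its exonic bases), had 1.01 and 0 normalized counts in wt and 223 and 210 in Top2β-null cells. The part of these neighbours in the Apobec3 value was not tested.

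The genes with the most similar profile over the 4 libraries were found by the distance between log2 profiles centred on their own mean, among 16644 genes. For Apobec3 these were Ucp2 (distance 0.23), Ifi44 (0.31) and Gata4 (0.44), and for Rnaseh2a they were Clic1 (0.0129), Pon2 (0.0154) and Bora (0.0155). With 4 libraries in 2 groups, the distance mainly compares the size of the change. Ucp2, for example, had 11.1 and 2.90 normalized counts in wt and 2416 and 2391 in Top2β-null cells.

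Genes of the pathways around the members were read from the same fit, as lists by role. Of 14 genes listed for the repair of ribonucleotides in DNA, Top1 among them, 6 were higher, 6 lower and 2 did not pass (adjusted p below 0.05, edgeR). Their median log2 fold change was 0.0082. The small polymerase δ subunit Pold4 (-1.65) and Pold2 (-0.41) fell the most, and the clamp loader subunit Rfc3 (0.87) and the flap nuclease Fen1 (0.26) rose the most. Of 30 other factors that remove or prevent R-loops, 8 were higher and 16 lower, with a median of -0.074. Brca2 (1.16) and the helicase Ddx41 (0.82) led the rise, and Tdrd3, the partner of Top3b, (-1.02) and the SUMO protease Senp1 (-0.97) the fall. Of 15 enzymes of the dNTP pool, on which Samhd1 acts, 7 were higher and 5 lower, with a median of 0.078. The p53-regulated reductase subunit Rrm2b (-1.03) and thymidine kinase Tk1 (-0.66) fell, and Guk1 (0.69) and Dctd (0.56) rose. Of all features 32.5% passed in each direction. With scaling to Hprt, these 3 lists had 10, 21 and 13 genes higher and 1, 6 and 2 lower, so their balance depends on the scaling. That scaling moved the median log2 fold change of all features from 0.0027 to 0.37, so the shift is not particular to these lists.

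Enzymes and sensors that handle the cell's own nucleic acid moved both ways. Of 19 tested, 5 were higher and 7 lower (10 and 5 with scaling to Hprt), with a median log2 fold change of -0.12, or -0.072 without Pld4, which was under 10 counts in both Top2β-null libraries. Ifih1, the sensor of double-stranded RNA, rose from 7.07 and 16.4 to 441 and 501 normalized counts (log2 fold change 5.30, edgeR adjusted p = 1.4e-12), and Adar, which edits such RNA, rose by 0.90 on the log2 scale. The lysosomal nuclease Dnase2a fell by 2.01 and Dnase1l1 by 1.43 on the log2 scale. Of 19 other restriction factors tested, Mx2 had under 10 counts in both wt libraries and Mov10l1 in both Top2β-null libraries, so that each passed the filter through a single genotype. Of the other 17 genes, 10 were higher and 4 lower, with a median of 0.66, against 32.5% of all features in each direction. Trim25, a ligase that works with the antiviral protein ZAP, rose from 14.1 and 10.6 to 8168 and 8163 normalized counts (log2 fold change 9.36), and Trim30a from 10.1 and 11.6 to 1094 and 1069 (6.62). Isg20, an RNA exonuclease, was lower (-0.43), as was Serinc3 (-0.11), but of all 19 genes, 11 higher and 5 lower in this fit, 14 were higher and 2 lower with scaling to Hprt, and 6 were higher and 2 lower with at least 100 counts in every library.

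The interferon list holds 15 genes, of which 7 were under 10 counts in both wt libraries and could be tested only through the Top2β-null libraries, where they were high. The other 8 genes were higher by adjusted p (edgeR), as were 32.5% of all features. Their log2 fold changes ran from 1.15 to 5.39, with a median of 1.78. The list was chosen with earlier results of these data known, so its direction is not an independent result. The smallest changes were those of the transcription factors Stat2 (1.15) and Irf1 (1.23). These 8 were also the genes that could be tested without either Top2β-null replicate, and they were higher there too. With at least 100 counts in every library 6 could be tested, and all 6 were higher. Among the 7 genes near 0 in wt, Oasl2 went from 0 and 0.966 to 453 and 429 normalized counts and Ifi44 from 1.01 and 0 to 434 and 427. The core ISRE letters were in the windows of 7 of the 13 genes of this list with a window. Of all genes with a window, 3.99% held them. The list was made of interferon genes, before many of which the element is found, so this share is no result about these cells. Among the other restriction factors, 3 of 18 genes with a window held the letters.

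**Figure D4:**
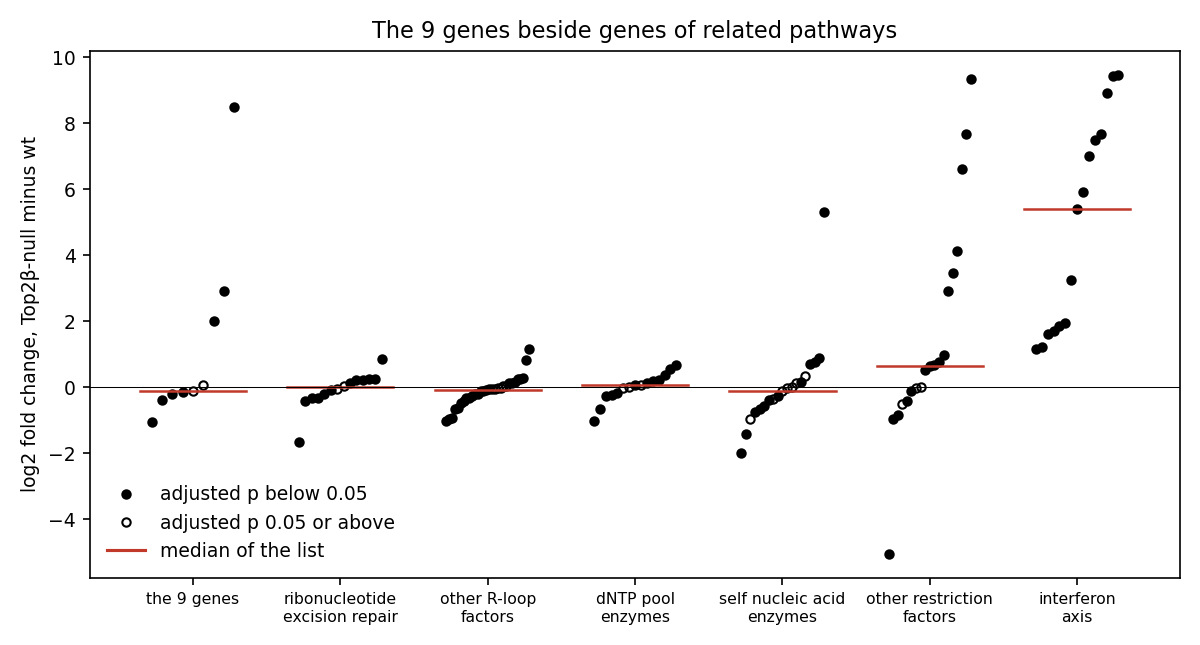
Log2 fold change of each tested gene among the 9 genes and in 6 lists (points ordered by value within a list; filled, adjusted p below 0.05; open, 0.05 or above; red bars, median). The repair, R-loop and dNTP lists centre near 0, the points of the interferon list lie above 0 (its red bar includes the 7 genes under 10 counts in both wt libraries), and the lowest point is Mov10l1, which was at or under 3 reads per library in Top2β-null cells.

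Repeats were read as RepeatMasker families. The list holds 16 families of LINE and LTR elements and the major satellite repeat (MSR), which is no retroelement. Of the 16 families, 13 were higher and 1 was lower by adjusted p (edgeR), and the median log2 fold change was 0.13. Of all 1481 repeat families tested, 27.6% were higher and 12.5% lower, with a median of 0.041. MMERVK10C-int, an ERVK family, rose from 14656 and 15129 normalized counts to 32631 and 31269 (log2 fold change 1.10, edgeR adjusted p = 6.6e-15), and ETnERV-int by 0.75. MMVL30-int went the other way, from 33101 and 32766 to 18162 and 17599 (-0.88). RLTR4_Mm (0.079), IAPEz-int (0.088) and L1Md_T (0.15) were higher by less. L1Md_T had 187275 and 189447 normalized counts in wt and 217235 and 199928 in Top2β-null cells, so replicate 1 showed more of the rise. L1Md_A likewise had 108843 and 109389 in wt and 120988 and 110972 in Top2β-null cells. MSR, listed as GSAT_MM, had 3463 and 3619 normalized counts in wt and 5621 and 5501 in Top2β-null cells. With scaling to Hprt 16 of these 17 repeats were higher and 1 was lower.

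**Figure D5:**
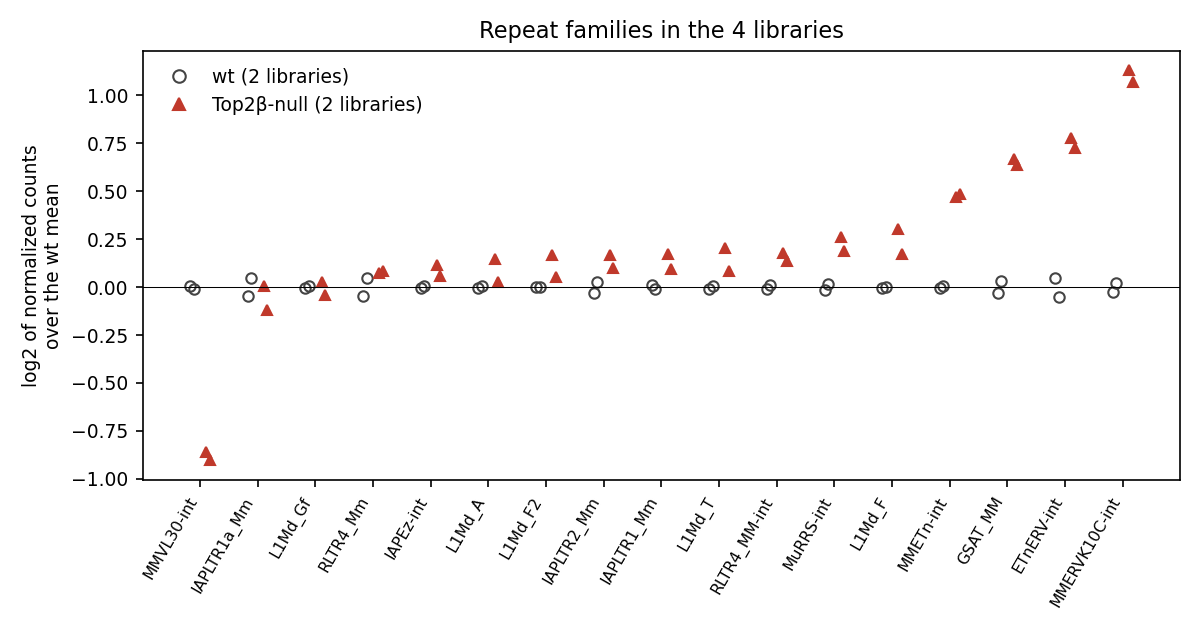
Log2 of the normalized counts of each repeat family over its wt mean, 1 symbol per library (open circles, wt; triangles, Top2β-null). MMVL30-int lies below 0 in both Top2β-null libraries, and MMERVK10C-int lies highest at a log2 fold change of 1.10.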

How the data were processed

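Reads of 150 bp in pairs came from RNA depleted of ribosomal RNA. After trimming, the authors mapped them to mm10 with STAR, allowing multiple alignments, and TEtranscripts assigned them to genes (Gencode) and repeat families (RepeatMasker). Raw counts were deposited, and whether assignment used strand is not given in the sources used here. GENCODE M21 (GRCm38), a later release, gave symbols, positions, exon lengths and overlaps for 54495 of 54842 gene identifiers. Members and lists were chosen with earlier results of these data known.

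Genes and repeats reaching 10 counts in 2 or more libraries were fitted in edgeR 4.0.16 (R 4.3.3) with TMM and the quasi-likelihood test on genotype. Benjamini-Hochberg adjustment ran over all 26566. Standard errors were derived from F and the size of the change. The tests were tested on simulated data. Some listed genes are not named here. Counts of replicates were further apart than sampling explains, with a chi-square over its degrees of freedom of 3.65 (wt) and 5.07 (Top2β-null). Alternatives were DESeq2 1.42.0, TMM from genes only, scaling to total count or Hprt, no filter, 100 counts in every library, a replicate block, other size limits and each library left out. Besides members, their overlapping and most similar genes, topoisomerases and markers, each list names its 2 highest and 2 lowest changes with an adjusted p under 0.05 and a mean over 100, and any listed repeat family may be named. Marker lists may also name their most abundant genes and those at 0 in a genotype. Mx2, Mov10l1, Pld4, Tek and Ptprc fall outside these rules and were chosen after their values were seen. Lum falls outside them as well.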

Additional observations from a re-analysis of the deposited data

How the results depend on the processing

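With 2 libraries per genotype, depth (at least 133116830 counts each) limits the genes near 0 in wt cells, such as Apobec3, which rests on 11 and 4 reads, and 7 of the 15 interferon genes, each under 10 reads in both wt libraries. Scaling to Hprt, itself lower in Top2β-null cells, moved the median log2 fold change of all features from 0.0027 to 0.37, and the values under it shifted by about that much. It gave 0.23 for Rnaseh1, 0.16 for Samhd1 and 0.25 for Trex1, each reversed, -0.0092 for Rnaseh2b, which lost its call, and 0.43 for Rnaseh2c, with 7 members higher and 1 lower by adjusted p, 0 lower by the cut-offs, and 2318 features higher and 767 lower. Scaling to the total count gave 0 members lower by the cut-offs, -0.069 for Rnaseh1 and 0.13 for Rnaseh2c. Rnaseh1 had -0.13 with DESeq2, -0.12 with TMM from genes only and -0.12 without a filter, and none of these passed; its adjusted p ranged from 7.7e-04 to 0.29 over all settings. At least 100 counts in every library left 825 features higher and no value for Apobec3, because genes near 0 in wt were removed.

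Leaving out each library, with the lone one assumed to vary like the other genotype, gave 0 to 1 members lower by the cut-offs (0 without Top2β-null replicate 1), -0.18 to -0.074 for Rnaseh1 and 0.043 to 0.12 for Rnaseh2c. Rnaseh2a ranged from -1.07 to -0.9997, Rnaseh2b from -0.41 to -0.34, Samhd1 from -0.24 to -0.16, Trex1 from -0.17 to -0.072, Mov10 from 1.94 to 2.03 and Bst2 from 2.86 to 2.98. The log2 ratios differed within replicate numbers 1 and 2 by -0.74 and -0.62 for Rnaseh2a to Rnaseh2b, -1.11 and -1.13 for Rnaseh2a to Rnaseh2c, and -0.37 and -0.51 for Rnaseh2b to Rnaseh2c. The causes were not tested. Both genotypes have replicates 1 and 2, and same-numbered libraries had deviations with a correlation of 0.0207 over 17952 features, so nothing here shows pairing. A replicate block gave 3 members higher and 1 lower by the cut-offs and changed no member's call. Of 154 counts of the lists under the alternatives, 139 stayed within 1.5 times.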
